A study of Mus musculus with 10 samples.

Results

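Fatty acid uptake and binding in visceral white adipose tissue (WAT) was followed through 10 listed genes, all 10 of which were found by symbol among the 47937 genes counted in every library. The list held *Lpl*, *Gpihbp1*, *Angptl4* and *Vldlr*, whose products act on circulating triglyceride, *Cd36*, *Slc27a1* and *Slc27a4* at the membrane, and *Fabp4*, *Fabp5* and *Acsl1* inside the cell. mRNA-seq gave 10 libraries in 4 groups, from mice backcrossed to C57BL/6J. On a standard diet (SD) there were 3 *Mof*+/+ and 3 *Mof*+/- libraries from 8-week-old animals. On a high-fat diet (HFD) there were 2 *Mof*+/+ and 2 *Mof*+/- libraries from 27-week-old animals that had been fed it for 20 weeks by the series' description, whereas the study's text gives another feeding time. *Mof* (*Kat8*) encodes an acetyltransferase of histone H4, and the heterozygous animals carried the allele in the whole body and not in adipocytes alone. The comparisons asked how the genotype changed WAT on each diet, and how the diet changed it in each genotype.

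Triglyceride in the blood is cut by lipoprotein lipase on the capillary wall of adipose tissue, and the freed fatty acids pass through the endothelium into adipocytes. There they are taken up with the help of membrane proteins, activated to acyl-CoA and carried by small cytosolic binding proteins before storage. Lipase activity is held at the vessel wall by GPIHBP1 and restrained by ANGPTL4, so lipase mRNA alone does not give the activity.

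Counts on genes ranged from 1044355 to 17171947 per library. The smallest total was that of HFD *Mof*+/- replicate 1, where the mitochondrial genome took 26.9% of counts against 1.79% to 8.82% in the other 9, and where 16 skeletal muscle markers summed to 83135 CPM (counts of a gene per 1e6 counts on genes in the library) against 2044 CPM in HFD *Mof*+/- replicate 2 and 105 to 1578 CPM in the other 8. The 1578 CPM, in SD *Mof*+/- replicate 3, came mostly from *Tpm2* at 1473 CPM. There 8 of the 16 markers had a count, against all 16 in HFD *Mof*+/- replicate 2. Every library contained all 7 adipocyte markers. On SD, the 3 *Mof*+/- libraries had 0 counts of 4 Y-linked genes and 46.1 to 139 CPM of *Xist*, while the other 7 libraries had Y-linked counts and 0 of *Xist*. Male mice are named in the methods of the study. The genotypes on SD, and the diets in *Mof*+/-, therefore cannot be told apart from this sex-linked difference. The genotype of SD replicate 3 in the sample labels was exchanged between the groups in the column headings, and the labels were followed here. The headings also numbered HFD *Mof*+/- replicates 1 and 2 as 3 and 4. *Kat8* itself was at 20.4 to 21.5 CPM in SD *Mof*+/+ and at 12.2, 18.8 and 11.5 CPM in SD *Mof*+/-. On HFD it was at 18.1 and 19.2 CPM in *Mof*+/+ and at 20.1 and 10.5 CPM in *Mof*+/-, so that the library labelled HFD *Mof*+/- replicate 1 was not lower than the controls. Its 21 counts gave an exact binomial 95% interval of 12.4 to 30.7 CPM, which covers counting error only. In whole tissue, fewer cells of a type and less RNA per cell cannot be told apart.

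*Fabp4* and *Fabp5* encode related binding proteins and lie close together on chromosome 3 of GRCm38, so their coding sequence is shown first to see how far reads could be told apart. Exon 2 of *Fabp4* spans chr3:10205950-10206122 on the - strand and exon 2 of *Fabp5* spans chr3:10014971-10015143 on the + strand. Both are 173 bases long and are printed 5′ to 3′, with capitals at the 70 positions where they differ.
Fabp4: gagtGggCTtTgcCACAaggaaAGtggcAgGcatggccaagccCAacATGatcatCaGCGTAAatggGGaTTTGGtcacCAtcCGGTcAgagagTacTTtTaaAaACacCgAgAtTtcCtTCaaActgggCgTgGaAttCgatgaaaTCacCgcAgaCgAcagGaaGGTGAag
Fabp5: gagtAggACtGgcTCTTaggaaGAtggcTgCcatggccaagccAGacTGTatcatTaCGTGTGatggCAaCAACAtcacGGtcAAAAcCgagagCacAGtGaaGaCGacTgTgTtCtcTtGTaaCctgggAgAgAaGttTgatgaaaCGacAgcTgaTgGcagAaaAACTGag
The pair was identical at 103 positions (59.5%), and the longest run without a difference in this exon was 12 bases. Over all their annotated transcripts the longest shared run was 16 bases, against reads of 100 bases. *Fabp5* also has 3 processed pseudogenes with at least 95% identity over 100 bases or more, none of which was counted above 11.03 CPM. *Lpl* and *Slc27a1* share shorter stretches of that identity with 44 and 47 other genes, the longest being 184 and 167 bases, and how reads with several matches were counted is not given in the sources used here. *Acsl1* overlaps *Gm45244*, which was not analysed here.

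Levels between genes were compared as CPM per kb of exon. With merged exons as the length, the median over the 10 libraries was highest for *Fabp4*, at 2704 CPM per kb, followed by *Cd36* at 869 and *Lpl* at 848. The ranges of *Cd36* and *Lpl* overlapped, at 285 to 1197 and 400 to 2183 CPM per kb, and over all libraries neither can be placed above the other. With this length their order differed between groups. The mean of *Cd36* was above that of *Lpl* in SD *Mof*+/+ (974 against 468 CPM per kb). In SD *Mof*+/- it was below it (800 against 1573 CPM per kb). *Angptl4*, *Gpihbp1*, *Acsl1*, *Slc27a1* and *Fabp5* formed a lower tier with medians of 138, 80.3, 71.6, 58.4 and 58.4 CPM per kb and overlapping ranges. *Slc27a4* at 11.5 and *Vldlr* at 8.50 CPM per kb were the lowest. With the longest coding transcript as the length, *Fabp4* stayed first and *Slc27a4* and *Vldlr* stayed last, but *Lpl* moved to the second place and *Fabp5* from the eighth to the fourth, with a median of 211 CPM per kb. In counts, *Fabp4* and *Lpl* made up most of the list, with 41.2% to 62.9% and 19.7% to 42.7% of the members' counts in each library.

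**Figure D1:**
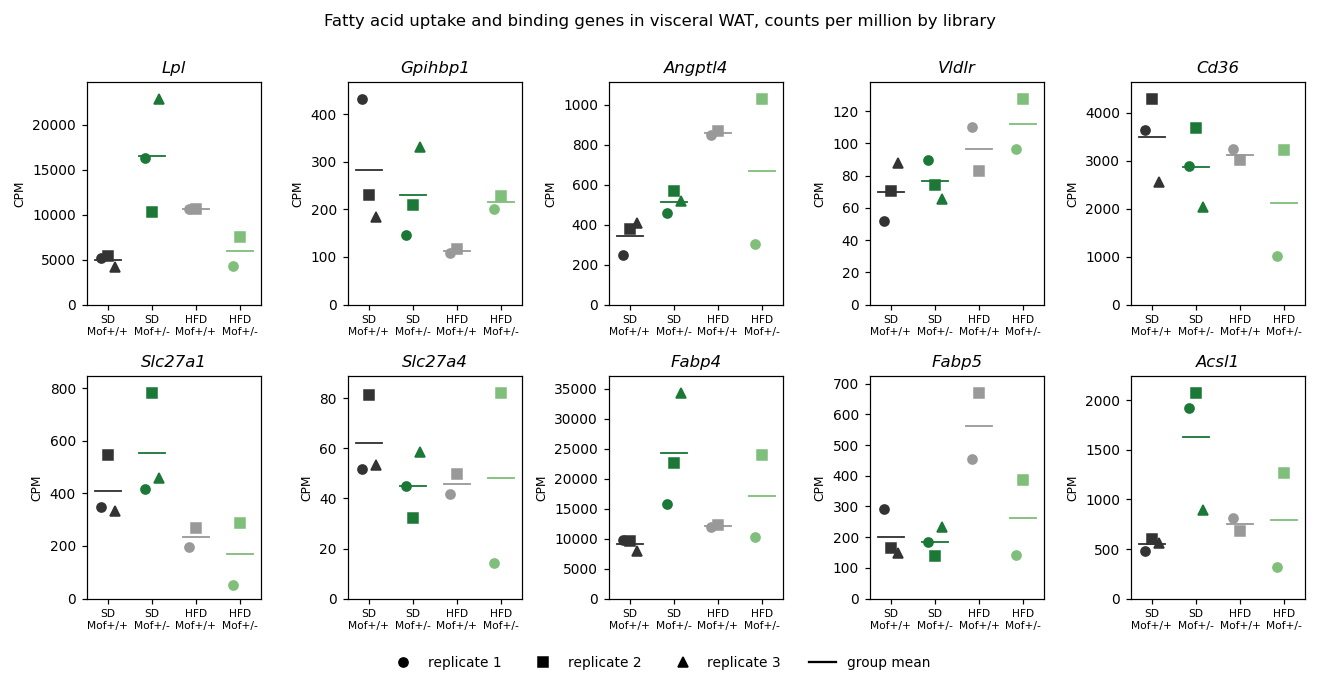
CPM of the 10 genes in each library (one panel per gene, linear axes from 0), with libraries as points shaped by replicate number, horizontal lines at group means and groups along the x axis. *Lpl*, *Fabp4*, *Angptl4* and *Acsl1* in the 3 SD *Mof*+/- libraries lie above the 3 SD *Mof*+/+ libraries, and the 2 HFD *Mof*+/- libraries lie far apart for most genes.

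On SD, lipoprotein lipase and the intracellular genes *Fabp4* and *Acsl1* rose in *Mof*+/- WAT, by 3.5-fold to 4.4-fold. No member was called lower. These libraries are also the ones that differed in sex-linked counts. The membrane genes *Cd36*, *Slc27a1* and *Slc27a4* and the lipase anchor *Gpihbp1* did not pass the test. Of the 10 members, 3 passed (adjusted p under 0.05, edgeR's quasi-likelihood test over all genes) against 5.24% of 13864 genes tested, of which 462 were higher and 265 lower. Values below are in the order of replicates 1 to 3, and fold changes are on the log2 scale, *Mof*+/- over *Mof*+/+, after scaling libraries by TMM (trimmed mean of M values).

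*Lpl* (chromosome 8, 68880491 to 68907448, + strand), the lipase itself, had 5150, 5380 and 4195 CPM in *Mof*+/+ and 16292, 10278 and 22870 CPM in *Mof*+/-. The lowest *Mof*+/- library had more than the highest *Mof*+/+ library. The log2 fold change was 2.13 ± 0.37 (SE, n = 3 and 3, adjusted p = 0.0301 by edgeR). *Gpihbp1* (chromosome 15, 75596628 to 75599481, + strand), which carries the lipase across endothelial cells and holds it there, had 432, 231 and 184 CPM in *Mof*+/+ and 147, 210 and 331 CPM in *Mof*+/-. Its groups overlapped, and the log2 fold change was 0.08 ± 0.42 (SE, adjusted p = 0.926 by edgeR). *Angptl4* (chromosome 17, 33773750 to 33781830, - strand), whose product inactivates the lipase, had 248, 376 and 407 CPM in *Mof*+/+ and 457, 567 and 520 CPM in *Mof*+/-. All 3 *Mof*+/- libraries were above the *Mof*+/+ ones, but at 0.95 ± 0.27 (SE) the adjusted p was 0.0707 by edgeR. DESeq2 gave *Angptl4* an adjusted p of 0.00634, where it called 15.9% of all genes. Without a filter on low counts edgeR gave 0.0472, with 8.35% of all genes called. *Vldlr* (chromosome 19, 27216484 to 27254231, + strand), a receptor that binds triglyceride-rich lipoproteins, had 51.7, 70.3 and 87.9 CPM in *Mof*+/+ and 89.8, 74.1 and 65.7 CPM in *Mof*+/-, and the groups overlapped (0.49 ± 0.26, SE).

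At the membrane, *Cd36* (chromosome 5, 17781690 to 17888801, - strand), a fatty acid translocase of adipocytes and endothelium, had 3645, 4296 and 2550 CPM in *Mof*+/+ and 2890, 3692 and 2032 CPM in *Mof*+/-. The groups overlapped, and the log2 fold change was 0.06 ± 0.31 (SE, adjusted p = 0.924 by edgeR). *Slc27a1* (chromosome 8, 71568882 to 71587302, + strand), the transport protein FATP1, had 348, 548 and 333 CPM in *Mof*+/+ and 418, 783 and 460 CPM in *Mof*+/-. *Slc27a4* (chromosome 2, 29802634 to 29817522, + strand) encodes the related FATP4 and had 51.9, 81.2 and 53.4 CPM in *Mof*+/+ against 44.8, 32.0 and 58.4 CPM in *Mof*+/-. Both overlapped between genotypes, with log2 fold changes of 0.79 ± 0.33 (SE, adjusted p = 0.175 by edgeR) for *Slc27a1* and -0.09 ± 0.33 (SE, adjusted p = 0.886) for *Slc27a4*.

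Inside the cell, *Fabp4* (chromosome 3, 10204088 to 10208576, - strand), the main fatty acid binding protein of adipocytes, had 9721, 9563 and 8001 CPM in *Mof*+/+ and 15711, 22570 and 34345 CPM in *Mof*+/-. The groups were apart, and the spread was wider in *Mof*+/- (SD 9425 CPM) than in *Mof*+/+ (SD 951 CPM). The log2 fold change was 1.79 ± 0.37 (SE, n = 3 and 3, adjusted p = 0.0375 by edgeR). With both SD replicates 3 set aside, the libraries whose genotype the headings exchange, it was 1.29 and no longer called (adjusted p = 0.0607), and in one fit of all 10 libraries it was not called either (0.0782). *Fabp5* (chromosome 3, 10012548 to 10016607, + strand), the binding protein shared by adipocytes, macrophages and endothelium, had 292, 165 and 148 CPM in *Mof*+/+ and 183, 140 and 233 CPM in *Mof*+/-, which overlapped (0.25 ± 0.34, SE, adjusted p = 0.691 by edgeR). *Acsl1* (chromosome 8, 46471037 to 46536051, + strand) encodes the main acyl-CoA synthetase of adipocytes, and had 481, 598 and 563 CPM in *Mof*+/+ and 1919, 2076 and 898 CPM in *Mof*+/-. Its *Mof*+/- libraries were all higher, with a log2 fold change of 1.91 ± 0.33 (SE, n = 3 and 3, adjusted p = 0.0290 by edgeR).

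Over the list, 9 of 10 members had a log2 fold change above 0 on SD, with a median of 0.64 against -0.07 over all genes tested. An unadjusted p under 0.05 was reached by 5 members, against 25.7% of all genes. The genotypes did not overlap in CPM for 4 members, all higher in *Mof*+/-, against 40.3% of all genes in either direction, which is about the same share. Scaling by library totals in place of TMM moved the median of all genes by 0.36 to -0.43 and the calls to 165 higher and 557 lower. The same 3 members were then called, while the log2 fold changes of *Cd36*, *Fabp5* and *Gpihbp1* turned to -0.29, -0.13 and -0.30.

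Other features of the tissue moved with these genes on SD. The sum of the 7 adipocyte markers was 17750 to 24381 CPM in *Mof*+/+ and 30358 to 38014 CPM in *Mof*+/-, and all 7 had counts in every library. The markers did not all follow the sum: *Lep* (634 to 1812 CPM in *Mof*+/+ and 834 to 1028 CPM in *Mof*+/-), *Plin1* (1458 to 2007 and 1246 to 2024 CPM) and *Cfd* (9901 to 12413 and 12175 to 16519 CPM) overlapped between the genotypes. The sum of 8 endothelial markers was 1143 to 2730 CPM in *Mof*+/+ and 280 to 338 CPM in *Mof*+/-, with all 8 counted in every library. The part of either in the members' levels was not tested. No member was called when SD *Mof*+/+ replicate 1, 2 or 3 or *Mof*+/- replicate 2 was left out, where 0.130%, 0.239%, 0.512% and 0.115% of all genes were called, or when the headings in the files set the groups. In those 4 fits the log2 fold changes were 2.01 to 2.41 for *Lpl*, 1.69 to 1.88 for *Fabp4* and 1.73 to 2.00 for *Acsl1*, and under the headings they were -0.19, -0.27 and 1.24.

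**Figure D2:**
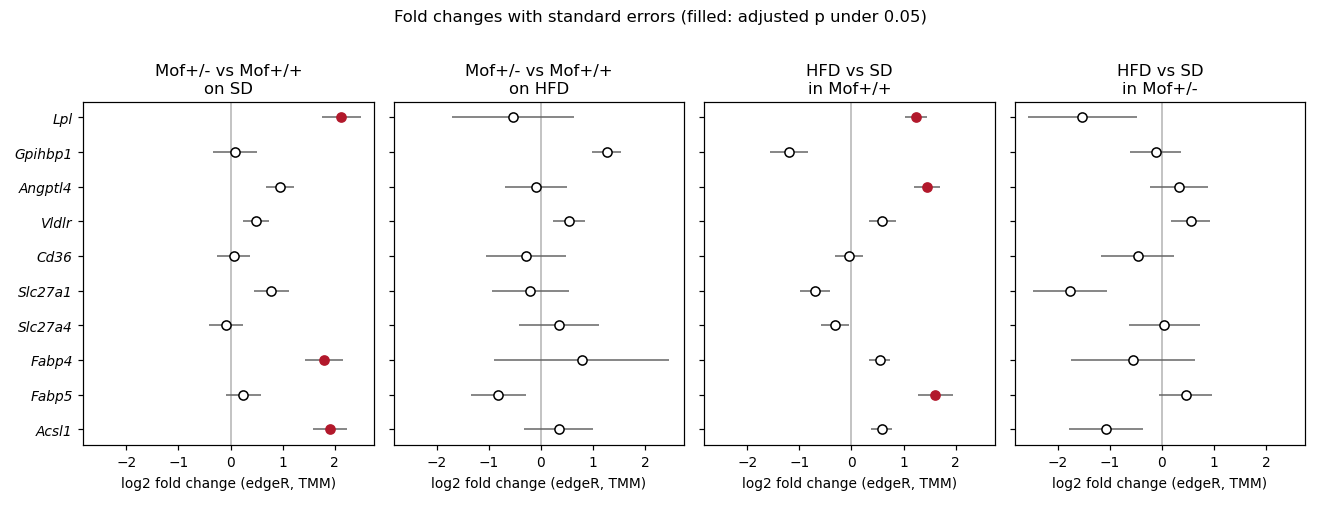
Log2 fold change of each gene in the 4 comparisons of group pairs (x axis, edgeR after TMM scaling), with standard errors as bars and filled points for an adjusted p under 0.05. *Lpl* at 2.13, *Acsl1* at 1.91 and *Fabp4* at 1.79 are filled for the genotype on SD, *Fabp5*, *Angptl4* and *Lpl* for the diet in *Mof*+/+, and none in either comparison that used the HFD *Mof*+/- libraries.

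On HFD, none of the members passed the test between genotypes, and the *Mof*+/- libraries disagreed with each other. Replicate 1 had less than replicate 2 for 10 of 10 members. It had less than both *Mof*+/+ libraries for 8 members, while replicate 2 had more than both for 7. For 5 of them, *Fabp4*, *Angptl4*, *Slc27a1*, *Slc27a4* and *Acsl1*, the *Mof*+/- libraries therefore stood on opposite sides of the controls. The sum of the 7 adipocyte markers was split likewise, at 4584 and 15617 CPM in *Mof*+/- against 14388 and 10857 CPM in *Mof*+/+. Not all of them followed it. *Lep* was lower in both *Mof*+/- libraries (938 and 2246 CPM against 6212 and 4599 CPM). *Pck1* was higher in both (294 and 800 CPM against 266 and 128 CPM). *Cfd* in *Mof*+/- replicate 1, at 578 CPM, lay between the *Mof*+/+ libraries (624 and 533 CPM). The part of these markers in the members' levels was not tested.

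*Gpihbp1* was the member with the most similar values in the *Mof*+/- replicates. It had 109 and 116 CPM in HFD *Mof*+/+ and 200 and 229 CPM in HFD *Mof*+/-, where both libraries were higher. The log2 fold change was 1.26 ± 0.28 (SE, n = 2 and 2) with an adjusted p of 0.278 by edgeR, and no gene tested went below it. *Lpl* had 10602 and 10594 CPM in *Mof*+/+ and 4297 and 7502 CPM in *Mof*+/-. Both *Mof*+/- libraries were lower, at a log2 fold change of -0.54 ± 1.17 (SE, adjusted p = 0.913 by edgeR). *Fabp5* had 454 and 671 CPM in *Mof*+/+ and 141 and 386 CPM in *Mof*+/-, again lower in both (-0.82 ± 0.53, SE, adjusted p = 0.702 by edgeR). The sum of 8 macrophage markers was lower in both *Mof*+/- libraries too, at 366 and 895 CPM against 1773 and 2574 CPM in *Mof*+/+. Of these markers 7 were lower in both and *Cd163*, at 33.5 and 16.1 CPM against 9.82 and 11.2 CPM, was higher in both, and their part in *Fabp5* was not tested.

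The remaining members overlapped between genotypes. *Fabp4* had 11972 and 12301 CPM in *Mof*+/+ and 10281 and 24016 CPM in *Mof*+/-. *Acsl1* had 816 and 685 CPM in *Mof*+/+ against 318 and 1267 CPM, *Angptl4* 849 and 871 CPM against 305 and 1031 CPM, and *Cd36* 3241 and 3009 CPM against 1023 and 3232 CPM. In each, the *Mof*+/+ libraries lay close together and the *Mof*+/- libraries at least 2.3-fold apart. *Slc27a1* had 197 and 268 CPM in *Mof*+/+ against 51.7 and 287 CPM, and *Slc27a4* had 42.0 and 49.8 CPM against 14.4 and 82.3 CPM. These transport genes differed most between the *Mof*+/- libraries, by 5.5-fold and 5.7-fold, although the 14.4 CPM of *Slc27a4* rested on 15 counts (exact binomial 95% interval 8.04 to 23.7 CPM). *Vldlr* had 111 and 83.2 CPM in *Mof*+/+ against 96.7 and 128 CPM.

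**Figure D3:**
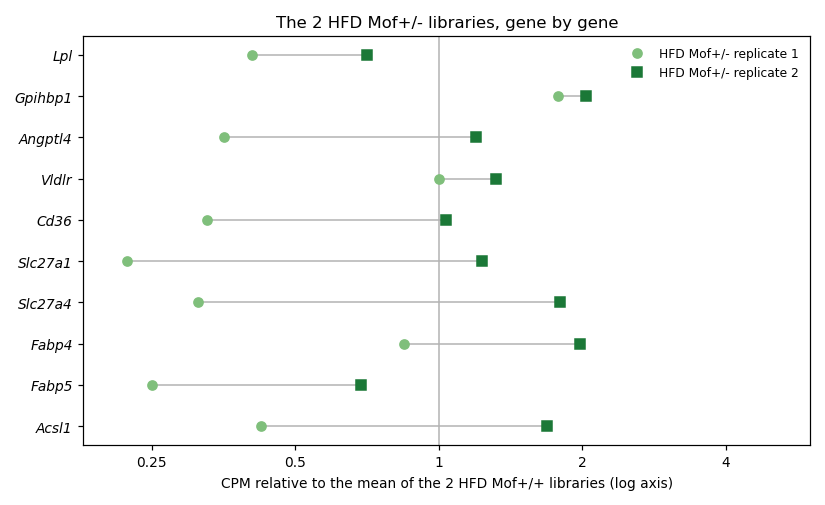
CPM of each gene in HFD *Mof*+/- replicate 1 (circles) and replicate 2 (squares), divided by the mean of the 2 HFD *Mof*+/+ libraries (x axis, log scale, vertical line at 1). Replicate 1 lies to the left of replicate 2 for all 10 genes, only *Gpihbp1* lies to the right of 1 in both (1.8 and 2.0), and *Lpl* and *Fabp5* lie to the left in both.

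Across the list on HFD, 0 of 10 members were called, by edgeR or by DESeq2, against 0% of 14120 genes by edgeR and 209 genes by DESeq2. An unadjusted p under 0.05 was reached by 1 member, *Gpihbp1*, against 12.3% of all genes, and no overlap in CPM by 1 higher and 2 lower members, against 54.4% of all genes. The median over the members was 0.12 and over all genes -0.24, the latter moving by 0.30 with library totals. Without HFD *Mof*+/- replicate 1, edgeR called 4 members higher (*Fabp4* at 1.15, *Gpihbp1* at 1.19, *Slc27a4* at 1.01 and *Acsl1* at 0.92) among 27.2% of all genes. Without replicate 2 it called 8, 7 of them lower, among 47.9% of all genes, and in both fits the lone library was assumed to vary like the controls. *Gpihbp1* was the only member called higher in both. The 16 muscle markers summed to 83135 and 2044 CPM in the *Mof*+/- libraries and to 105 and 116 CPM in *Mof*+/+, so both *Mof*+/- libraries were higher. The part of these markers and of the mitochondrial share of replicate 1 in the members' levels was not tested.

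In *Mof*+/+ WAT, *Angptl4*, *Lpl* and *Fabp5* rose on HFD, by 2.4-fold to 3.0-fold, and no member passed the test in the other direction. HFD and SD animals also differed in age, so diet and age cannot be told apart. The 3 members called compare with 9.75% of 14939 genes, 900 higher and 557 lower. The SD *Mof*+/+ libraries are those of the genotype comparison above, so the values of *Lpl* in both rest on the same controls.

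*Angptl4* went from 248 to 407 CPM on SD to 849 and 871 CPM on HFD. Both HFD libraries were more than 2-fold above the highest SD library, with a log2 fold change of 1.45 ± 0.24 (SE, n = 2 and 3, adjusted p = 0.0184 by edgeR). *Lpl* rose from 4195 to 5380 CPM to 10602 and 10594 CPM, 1.23 ± 0.21 on the log2 scale (SE, adjusted p = 0.0190 by edgeR). The lipase and its inhibitor were thus both higher in the same libraries. *Fabp5* rose from 148 to 292 CPM to 454 and 671 CPM, 1.61 ± 0.33 on the log2 scale (SE, adjusted p = 0.0318 by edgeR).

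*Gpihbp1*, in contrast with its ligand *Lpl*, had 184 to 432 CPM on SD and 109 and 116 CPM on HFD. Both HFD libraries were lower, but the log2 fold change of -1.20 ± 0.37 (SE) missed the threshold (adjusted p = 0.0853 by edgeR), while DESeq2 gave an adjusted p of 0.00878. *Slc27a1* was also lower in both HFD libraries (-0.69 ± 0.29, SE, adjusted p = 0.173 by edgeR), and so was *Slc27a4* (-0.32 ± 0.26, SE, adjusted p = 0.482). *Fabp4* (0.54 ± 0.21, SE, adjusted p = 0.142) and *Acsl1* (0.58 ± 0.20, SE, adjusted p = 0.107) were higher in both and not called by edgeR. *Vldlr* (0.59 ± 0.25, SE, adjusted p = 0.180) and *Cd36* (-0.04 ± 0.27, SE, adjusted p = 0.938) overlapped between the diets.

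In this comparison 5 members were higher and 3 lower without overlap in CPM, against 49.1% of all genes, and 7 had an unadjusted p under 0.05, against 28.4%. The median log2 fold change was 0.56 over the members and -0.04 over all genes, and with library totals that of all genes moved by 0.13 and the calls became 645 higher and 785 lower. The sum of 8 macrophage markers went from 457 to 727 CPM to 1773 and 2574 CPM, with all 8 counted in every library. Of the 8, 7 were higher in both HFD libraries and *Cd163* was lower, at 9.82 and 11.2 CPM against 49.0 to 73.4 CPM. The endothelial sum went from 1143 to 2730 CPM to 493 and 592 CPM, and the adipocyte sum from 17750 to 24381 CPM to 14388 and 10857 CPM. Within the adipocyte sum, *Cfd* went from 9901 to 12413 CPM on SD to 624 and 533 CPM on HFD, while *Lep* went from 634 to 1812 CPM to 6212 and 4599 CPM and *Cidec* from 1404 to 2303 CPM to 2891 and 2455 CPM, so the lower sum was not shared by all its markers. Their part in the levels of *Fabp5*, *Gpihbp1* and the other members was not tested. DESeq2 called 6 members, adding *Fabp4*, *Acsl1* and *Gpihbp1*, with 20.0% of all genes. No member was called without HFD *Mof*+/+ replicate 1 or replicate 2, or with the groups set by the headings in the files, and 1, *Fabp5*, was called without SD *Mof*+/+ replicate 1, where 1.49%, 0.384%, 0% and 1.63% of all genes were called. Without HFD replicate 1 or 2 the log2 fold changes were 1.26 and 1.25 for *Lpl*, at least 1.44 for *Angptl4* and 1.89 and 1.31 for *Fabp5*. Under the headings *Lpl* turned to -0.27, and one fit of all 10 libraries called 0 members.

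In *Mof*+/- WAT, no member passed the test between the diets. *Lpl* went from 16292, 10278 and 22870 CPM on SD to 4297 and 7502 CPM on HFD. Both HFD libraries were below the lowest SD library, with a log2 fold change of -1.53 ± 1.04 (SE, n = 2 and 3, adjusted p = 0.737 by edgeR). *Slc27a1* was lower in both HFD libraries too, at 51.7 and 287 CPM against 418 to 783 CPM (-1.76 ± 0.71, SE, adjusted p = 0.545 by edgeR). *Vldlr* was higher in both, at 96.7 and 128 CPM against 65.7 to 89.8 CPM (0.55 ± 0.38, SE, adjusted p = 0.737). The other 7 overlapped, with log2 fold changes from -1.08 ± 0.71 (SE) for *Acsl1* to 0.45 ± 0.50 (SE) for *Fabp5*. No gene was called by edgeR (0% of 13610) and 402 were called by DESeq2, among them 0 members. The unadjusted p was under 0.05 for 1 member, *Slc27a1*, against 8.57% of all genes, and 1 higher and 2 lower members did not overlap, against 27.6% of all genes. The members had a median of -0.29 and all genes of -0.26. Without HFD *Mof*+/- replicate 2, *Slc27a1* was called lower, at -3.31 on the log2 scale, among 13.8% of all genes. The adipocyte sum was 30358 to 38014 CPM on SD and 4584 and 15617 CPM on HFD, the endothelial sum 280 to 338 CPM and 437 and 481 CPM, and the muscle sum 116 to 1578 CPM and 83135 and 2044 CPM. In the adipocyte sum, *Lep* (834 to 1028 CPM on SD, 938 and 2246 CPM on HFD), *Plin1* and *Cidec* overlapped between the diets. In the endothelial sum, only *Cdh5*, *Tie1* and *Esam* were higher in both HFD libraries. Within the muscle sum, *Tpm2* alone had 1473 CPM in SD *Mof*+/- replicate 3. The part of these markers in the members' levels was not tested.

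The interaction, fitted to all 10 libraries, asked whether the genotype difference was unequal between the diets. It was not called for any member, against 0.0881% of 15897 genes called. *Lpl* had the largest estimate of the list, -2.76 ± 0.69 (SE, adjusted p = 0.167 by edgeR): its *Mof*+/- libraries were all above the controls on SD and both below them on HFD. With the groups of the column headings the estimate was -0.47 (adjusted p = 0.947 by edgeR). DESeq2 gave *Lpl* an adjusted p of 0.000480, where it called 490 genes, and edgeR without a filter on low counts 0.00266. *Acsl1* followed at -1.67 ± 0.70 (SE, adjusted p = 0.367 by edgeR), and these 2 members had an unadjusted p under 0.05, against 12.4% of all genes. Estimates were below 0 for 8 members, with a median of -1.08 against -0.41 over all genes, which moved by 0.16 with library totals. *Gpihbp1* (1.09 ± 0.62, SE) and *Slc27a4* (0.38 ± 0.77, SE) were above 0. Without HFD *Mof*+/- replicate 2, *Lpl*, *Acsl1*, *Angptl4* and *Slc27a1* were called, among 17.7% of all genes, and without replicate 1 no member was.

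GPIHBP1 is known as a protein of capillary endothelium, so *Gpihbp1* was set against the endothelial markers. In the 5 *Mof*+/+ libraries, over which the marker sum ran from 493 to 2730 CPM, *Gpihbp1* broadly went with that sum, but the *Mof*+/- libraries had more *Gpihbp1* for their marker sum. Its CPM divided by the sum of the 8 endothelial markers was 0.158, 0.186 and 0.161 in SD *Mof*+/+ and 0.434, 0.655 and 1.18 in SD *Mof*+/-. On HFD the ratio was 0.184 and 0.236 in *Mof*+/+ and 0.458 and 0.476 in *Mof*+/-. The 5 *Mof*+/- libraries, from 0.434 to 1.18, were thus above the 5 *Mof*+/+ libraries, from 0.158 to 0.236. On SD *Gpihbp1* itself overlapped between genotypes and the marker sum did not. On HFD *Gpihbp1* was higher in both *Mof*+/- libraries. The marker sums there were near each other, at 592 and 493 CPM in *Mof*+/+ and 437 and 481 CPM in *Mof*+/-, but single markers differed. *Pecam1* (34.5 and 92.7 CPM in *Mof*+/- against 143 and 109 CPM), *Cdh5* and *Kdr* were lower in both *Mof*+/- libraries. *Egfl7* was higher in both (78.5 and 102 CPM against 68.0 and 71.9 CPM), and the others overlapped. *Kdr* rested on 3 counts in HFD *Mof*+/- replicate 1. The CPM of *Fabp4* was 18.3 to 58.1 times that of *Fabp5* in the 5 *Mof*+/+ libraries and 62.3 to 162 times in the 5 *Mof*+/- libraries, again without overlap. Another 2 ratios overlapped between the genotypes. The CPM of *Lpl* was 11.9 to 97.4 times that of *Gpihbp1* in *Mof*+/+ and 21.5 to 111 times in *Mof*+/-, and that of *Cd36* was 1.34 to 6.11 times the endothelial sum in *Mof*+/+ and 2.34 to 11.5 times in *Mof*+/-. The headings would put the third SD library at 1.18 among the *Mof*+/+ and that at 0.161 among the *Mof*+/- libraries, and likewise 147 and 54.0 for *Fabp4* over *Fabp5*, and both ratios would then overlap. These 4 ratios were formed after the values were seen and were not tested, and they show an unequal change without saying which gene moved.

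**Figure D4:**
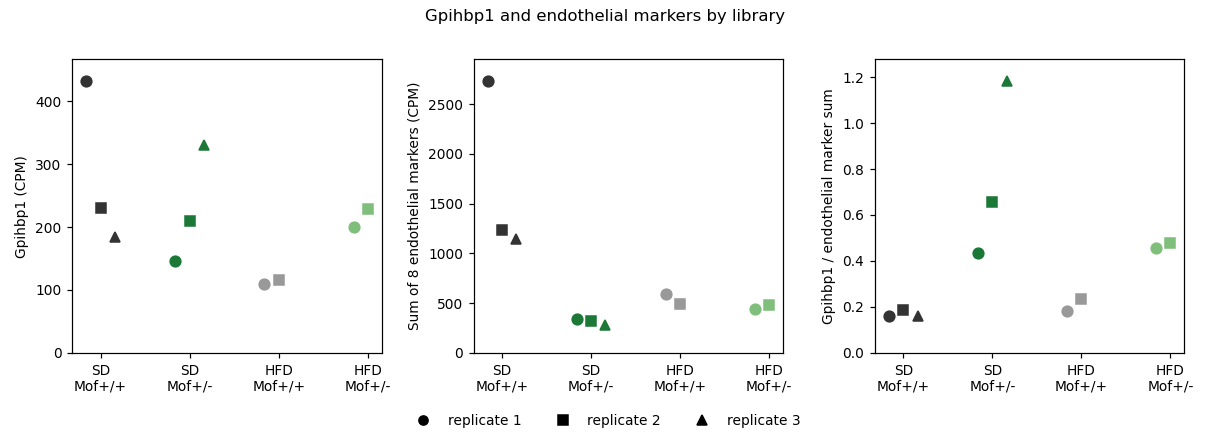
*Gpihbp1* (left, CPM), the sum of 8 endothelial markers (middle, CPM) and their ratio (right) in each library, with points shaped by replicate number. The ratio is at most 0.236 in *Mof*+/+ and at least 0.434 in *Mof*+/- libraries, while *Gpihbp1* alone overlaps between the genotypes on SD.

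Among 39 further genes of fatty acid handling (partners and regulators of the lipase and lipoprotein receptors, other transporters and synthetases, other binding proteins, and transcriptional regulators), 28 were tested on SD. Between the genotypes 1 rose and 3 fell, against the 5.24% of all genes given above. *Dbi*, the acyl-CoA binding protein, had 1035, 1396 and 1059 CPM in *Mof*+/+ and 2054, 2304 and 3901 CPM in *Mof*+/- (1.62 ± 0.35, SE, adjusted p = 0.0399 by edgeR). It was higher in all 3 *Mof*+/- libraries. *Furin*, a protease that can cleave the lipase, fell from 131, 125 and 116 CPM to 46.4, 39.2 and 26.8 CPM (-1.38 ± 0.25, SE, adjusted p = 0.0309). *Scarb1*, a receptor for HDL, had 276, 210 and 146 CPM in *Mof*+/+ and 58.5, 83.7 and 45.2 CPM in *Mof*+/- (-1.41 ± 0.32, SE, adjusted p = 0.0454). The groups did not overlap for *Dbi*, *Furin* or *Scarb1*. The call of *Scarb1* was lost when any of the 6 libraries was left out (adjusted p from 0.0643 to 0.172 by edgeR). *Dbi* and *Furin* lost theirs without *Mof*+/+ replicate 1, 2 or 3 or *Mof*+/- replicate 2. With an offset for transcript length *Dbi* was at 0.81 and *Scarb1* at -0.94, neither called, and *Furin* at -0.91, still called.

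In *Mof*+/+, 2 of 30 such genes rose on HFD and 2 fell, against the 9.75% of all genes given above. *Dbi* rose to 2156 and 2173 CPM (1.02 ± 0.22, SE, adjusted p = 0.0335 by edgeR), and *Acsl5*, an acyl-CoA synthetase, rose from 69.4 to 86.5 CPM to 124 and 124 CPM (0.75 ± 0.17, SE, adjusted p = 0.0428). *Furin* fell to 58.1 and 52.8 CPM (-1.04 ± 0.17, SE, adjusted p = 0.0182). *Tcf15*, a transcription factor known to drive fatty acid uptake genes in heart endothelium, fell from 21.04 to 29.8 CPM to 7.62 and 6.62 CPM (-1.73 ± 0.32, SE, adjusted p = 0.0246). None of these 4 was called without HFD *Mof*+/+ replicate 1 or 2 or without SD *Mof*+/+ replicate 1, and *Acsl5* and *Tcf15* were not called without SD *Mof*+/+ replicate 2 either. With the length offset *Dbi* was at 0.59 and not called. No gene of these lists was called between genotypes on HFD (30 tested), between diets in *Mof*+/- (31 tested) or in the interaction (34 tested).

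Across the 10 libraries, the genes with log2 CPM most like a member's were ranked by Pearson's r among the 11307 genes that averaged 50 counts or more. The libraries share group structure, depth and the features of HFD *Mof*+/- replicate 1, so r is given as a description. *Fabp4* was most like *Naxe*, *Ndufb6* and *Gpx4* (r = 0.988, 0.984 and 0.980), and *Cd36* like *Rcn2*, *Gorasp1* and *Xbp1* (0.972, 0.962 and 0.951). The genes like *Lpl* included *Ccl11* and *Vps45* (0.959 and 0.958), and *Slc27a1* was nearest to *Car5b*, *C2* and *Mgst1* (0.972, 0.959 and 0.956) and *Angptl4* to *Sycp3*, *Blvrb* and *Creb3* (0.963, 0.951 and 0.951). *Fabp5* was nearest to *Lmna* (0.959), *Slc27a4* to *Il17rc* (0.955), *Acsl1* to *Tceanc2* (0.939) and *Vldlr* to *Sucla2* (0.915). *Gpihbp1* had the weakest match, *Dbt* at 0.895. No member was among the 3 nearest genes of another member.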

How the data were processed

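The data are mRNA-seq of visceral WAT. In the authors' snakePipes run, STAR aligned reads to GRCm38. The authors counted them with featureCounts (Subread 1.5.0-p1) and deposited raw counts per gene for each library, without normalization. Groups came from the sample labels. Symbols, coordinates and exon lengths came from GENCODE M21, which covered 47224 of the 47937 gene identifiers when versions were ignored. Total counts of 1044355 to 17171947 per library set the precision.

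Groups were compared in pairs with edgeR 4.0.16 in R 4.3.3 (quasi-likelihood test, TMM, filterByExpr), using those libraries alone, with Benjamini-Hochberg adjustment over all genes tested and a threshold of 0.05. The interaction was fitted to all 10 libraries. The SE of an edgeR fit is the absolute log2 fold change divided by the square root of the test's F statistic. DESeq2 1.42.0, its size factors, 2 other filters, the replicate number as a block, 1 fit for all libraries, the groups of the headings, a length offset, TMM without mitochondrial and muscle genes and each library left out were alternatives. Library totals in place of TMM and the transcript length were chosen after seeing the data. The edgeR fits of the pairs were tested on simulated data, and the interaction and the alternatives were not. Same-numbered libraries did not deviate together (correlations from -0.043 to 0.032), so the numbers were not taken to pair them.

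The named genes were the 10 members, any gene of 4 further lists with an adjusted p under 0.05, and the 3 genes most like each member. A few genes named by this rule are not reported here, but they are included in the list totals. The members and lists were chosen with earlier results of these data known. Tables and figures were made in Python 3.11.15 (pandas 2.3.3, matplotlib 3.10.9).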

Additional observations from a re-analysis of the deposited data

Results flagged for a closer look

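*Lpl* was flagged because its genotype difference ran in opposite directions on the 2 diets. All 3 SD *Mof*+/- libraries were above the SD *Mof*+/+ libraries, and both HFD *Mof*+/- libraries were below the HFD *Mof*+/+ libraries. The same values read the other way give a diet difference that was upward in both HFD *Mof*+/+ libraries and downward in both HFD *Mof*+/- libraries. The interaction had a log2 fold change of -2.76 in either reading, and by edgeR's quasi-likelihood test the adjusted p was 0.167. Over the other settings that kept every library or set aside both SD replicates 3 it ran from -2.78 to -0.47, the smallest with the groups of the column headings, and the adjusted p from 0.000480 (DESeq2) to 0.947. The Y-linked and *Xist* counts of the SD *Mof*+/- libraries and the muscle markers of HFD *Mof*+/- replicate 1 moved with it, and their part was not tested.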

How the results depend on the processing

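The number of members called kept within 1.5 times of the reported one in most alternatives, with these exceptions. For the genotype on SD, where 3 were called, 1 (*Lpl*) was called with all 10 libraries in one fit and 0 with the groups of the column headings, and the count ran from 0 to 3 when each library was left out. For the genotype on HFD it ran from 0 to 8 when a library was left out. For the diet in *Mof*+/+, where 3 were called, DESeq2 called 6, all 10 libraries in one fit 0 and the groups of the headings 0, and leaving out a library gave 0 to 4. The 4 were reached without SD *Mof*+/+ replicate 3, where 14.9% of all genes were called. For the diet in *Mof*+/- leaving out a library gave 0 to 1. In the interaction DESeq2 and the fit without a filter on low counts each called 1 (*Lpl*), and leaving out a library gave 0 to 4. Where a group kept 1 library, it was assumed to vary like the rest.

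The replicate numbers do not pair the libraries. With the replicate block, 2 members were called on SD (*Lpl* and *Acsl1*), 2 for the diet in *Mof*+/+ (*Angptl4* higher, *Gpihbp1* lower) and 1 for the diet in *Mof*+/- (*Slc27a1*, lower), and all genes called went from 727, 0, 1457, 0 and 14 to 428, 200, 1460, 245 and 10 in the order SD, HFD, diet in *Mof*+/+, diet in *Mof*+/- and interaction. The block turned *Slc27a4* to -0.033 on HFD and to -0.025 for the diet in *Mof*+/-, and *Gpihbp1* to 0.34 for the latter. In the same order DESeq2 called 2211, 209, 2990, 402 and 490 genes and all libraries in one fit 194, 1, 142 and 189 for the pairs. Over the alternatives that kept every library or set aside both SD replicates 3, the genes called ran from 0 to 2211, 0 to 209, 0 to 2990, 0 to 429 and 0 to 490, and with 1 library left out from 17 to 1026, 92 to 7551, 64 to 2230, 0 to 2122 and 4 to 3163.

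Called genes changed sign only under the headings (*Lpl*, *Fabp4* and *Dbi*). Of the genes not called, *Slc27a4* and *Acsl1* on HFD turned from higher to lower and were then called without HFD *Mof*+/- replicate 2 (-1.28 and -0.85, adjusted p = 0.0125 and 0.0311 by edgeR), and were called higher without replicate 1. With the groups of the headings, SD values were -0.021 for *Cd36*, -0.19 for *Lpl*, -0.27 for *Fabp4*, -0.28 for *Dbi*, -0.52 for *Fabp5* and -0.85 for *Gpihbp1*. The diet in *Mof*+/+ then gave -0.14 for *Dbi*, -0.27 for *Lpl* and -0.74 for *Fabp4*, the diet in *Mof*+/- 0.23 for *Fabp4* and 0.43 for *Gpihbp1*, and the interaction 0.95 for *Fabp4*. Without both SD replicates 3, *Fabp5* was -0.20 and *Gpihbp1* -0.59 on SD, and *Gpihbp1* 0.32 for the diet in *Mof*+/-. With library totals, *Fabp5* was -0.13, *Cd36* -0.29 and *Gpihbp1* -0.30 on SD. In the interaction, *Vldlr* was 0.069 by DESeq2, 0.068 with its size factors, 0.043 with 10 counts in every library, 0.091 with library totals and 0.68 with the length offset.

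The length offset, which adjusts for a trend with exon length, moved the median log2 fold change of all genes from -0.24 to 0.79 on HFD, from -0.26 to 0.56 for the diet in *Mof*+/- and from -0.41 to 0.47 in the interaction, so the changes of sign there came with a shift of all genes. It gave -0.27 for *Gpihbp1* and 0.039 for *Slc27a4* on SD, and raised *Lpl* to 2.79 and *Vldlr* to 1.01 there. It also raised *Gpihbp1* to 2.53 on HFD (adjusted p = 0.0749 by edgeR) and to 2.54 in the interaction, and *Acsl1* to 0.88 for the diet in *Mof*+/+ (0.0397, called). On HFD it gave 0.18 for *Fabp5*, 0.66 for *Cd36*, 0.66 for *Slc27a1*, 0.76 for *Lpl* and 0.81 for *Angptl4*, for the diet in *Mof*+/- 0.20 for *Fabp4*, 0.26 for *Cd36* and 0.99 for *Gpihbp1*, and in the interaction 0.46 for *Cd36*.

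When each library was left out, these log2 fold changes crossed 0. On SD, *Cd36* ran from -0.13 to 0.25, *Fabp5* from -0.0023 to 0.62, *Gpihbp1* from -0.34 to 0.53 and *Slc27a4* from -0.38 to 0.16. On HFD, *Cd36* ran from -1.22 to 0.22, *Angptl4* from -1.10 to 0.43, *Slc27a1* from -1.78 to 0.47, *Slc27a4* from -1.28 to 1.01 and *Acsl1* from -0.85 to 0.92. For the diet in *Mof*+/+, *Cd36* ran from -0.24 to 0.14. For the diet in *Mof*+/-, *Cd36* ran from -1.38 to 0.062, *Fabp5* from -0.31 to 0.93, *Gpihbp1* from -0.37 to 0.32, *Angptl4* from -0.65 to 0.88 and *Slc27a4* from -1.56 to 0.74. In the interaction, *Cd36* ran from -1.35 to 0.16, *Slc27a4* from -1.25 to 1.10 and *Vldlr* from -0.22 to 0.19.

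Over single genes, alternatives and left-out libraries together, 768 values kept direction and call, 90 lost the call and 28 gained one with the direction kept, and 66 changed sign, a few of which changed call too. *Lpl*, *Acsl1* and *Fabp4* on SD were called in 10, 9 and 7 of 11 alternatives, *Furin*, *Scarb1* and *Dbi* in 9, 7 and 5, and *Angptl4*, *Lpl* and *Fabp5* for the diet in *Mof*+/+ in 9, 8 and 8. With the replicate block, *Dbi* (adjusted p = 0.0522 by edgeR) and *Scarb1* (0.0510) were not called on SD, nor *Dbi* (0.0946) and *Acsl5* (0.0854) for the diet in *Mof*+/+. The cause of these changes was not tested. The 1044355 counts of HFD *Mof*+/- replicate 1 limit its values for *Slc27a4* and *Slc27a1*, at 15 and 54 counts.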

Other observations

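The 10 genes together held 1.65% to 2.13% of counts in SD *Mof*+/+, 3.82% to 6.18% in SD *Mof*+/-, 2.84% and 2.86% in HFD *Mof*+/+ and 1.67% and 3.82% in HFD *Mof*+/-, so that in some libraries they bear on the library total by which CPM is formed. The sum of 7 mesothelial markers was 22.9 to 119 CPM in SD *Mof*+/+ and 190 to 332 CPM in SD *Mof*+/-, with 5 to 7 of them counted per library. The sum of 6 glial markers was 98.6 to 1111 CPM in SD *Mof*+/+, the highest in replicate 2, and 36.4 to 55.9 CPM in SD *Mof*+/-.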
